A study of Mus musculus with 12 samples.

Results

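Gene expression in the mouse subventricular zone was compared between 6 months and 2 months of age, a step within early adult life. The comparison took the 3 libraries of 6-month and the 3 of 2-month animals, 6 of the 12 libraries of the series. The other 6 libraries, from 18 and 22 months, entered the same fit and show the later course of the genes that changed. All samples were wild-type males. The tissue had been dissected and dissociated into single cells, and total RNA was extracted with Trizol, so each library is a mixture of all cells that survived dissociation. The strain C57BL/6 is given for the 2-month group and not for the 6-month group. Whether each library stands for its own animal is not stated, so p-values measure the spread between libraries, which may be technical. No library date or lane is given.

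The subventricular zone lines the lateral ventricle and is one of the sites where new neurons arise in the adult rodent brain. Astrocyte-like stem cells there are mostly quiescent. Once activated they give rise to fast-dividing transit-amplifying progenitors, which produce neuroblasts that migrate to the olfactory bulb, and also to oligodendrocyte precursors. The niche borders ependymal cells, blood vessels and the striatum, and the output of new neurons is known to decline with age.

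The 6 libraries held 7732316 to 15962517 reads. Levels are normalised counts, which are read counts divided by a size factor of the library, and a count of 3 reads corresponded to 1.74 to 3.57 normalised counts. Defining markers of the tissue were present, among them Dcx of neuroblasts at 1136 ± 55.2 and Foxj1 of ependymal cells at 407 ± 15.7 normalised counts at 2 months (SD, n = 3). Markers of striatal projection neurons were present as well, with a summed level of 130831 to 137417 at 2 months and 133153 to 137252 at 6 months. None of the 20 tested striatal markers passed the test described next. Replicate 1 of 6 months, the lowest library for several genes below, had 22.8% of its reads from transcripts over 6000 nt and 6.40% from those under 1500 nt. The other 5 libraries had 24.3% to 25.5% and 5.56% to 5.91%, and the part of this difference was not tested.

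Of 15663 genes tested, 145 differed between 6 and 2 months (0.926%), with 95 higher at 6 months (0.607%) and 50 lower (0.319%). A gene passed at an adjusted p under 0.05 (limma across all genes, Benjamini-Hochberg, two-sided), and "rose", "fell" and "passed" refer to this test. All 145 had 3 libraries of one age above all 3 of the other, which held for 22.7% of the tested genes. Most changes were small. A 1.5-fold change or more was reached by 43 of the higher and 15 of the lower genes, and a 2-fold change by 24 and 2. The median log2 fold change of all tested genes was 0.00. Counts of passing genes depended on single libraries: 39 genes passed without replicate 1 of 2 months, 49 without its replicate 2, 47, 80 and 65 without replicates 1, 2 and 3 of 6 months, and 266 without replicate 1 of 22 months. Of the 145 genes, 25 passed whichever of the 6 libraries was left out. Among genes named in the text, the calls of 9630013A20Rik, Abca8a, Agxt2l1, C3, E230025N22Rik, Fbxw21, Gpr17, Hmgcs1, Marcks, Nasp, Neat1, Rnd3, Rpe65, Rspo1, Slc4a11, Sox11, Srebf1, Tfrc, Txnip and Zbtb16 belonged to these 25. The other calls of genes named in the text were lost without at least 1 of these 6 libraries.

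Genes that rose had a higher GC content than genes that fell. The median over the longest transcripts was 53.6% for genes higher at 6 months, 43.2% for genes lower and 49.7% for all. Across 14853 genes, the Spearman rank correlation of the log2 fold change with GC content was 0.415, a description across genes that share libraries. The median log2 fold change ran from -0.09 in the lowest of 4 bins of GC content to 0.09 in the highest. In a fit without the trend in length and GC content, 105 genes passed, 66 higher and 39 lower, and 88 of the 145 were among them. Named genes that lost their call in it included the risers Apoe, Cyp2a4, Dbp, Grrp1, Hspg2, Igfbp6, Pnpla2, Rpl37, Slc2a1, Stra6 and Unc5a. They also included Cenpf, Ncapg, Car8 and Cd24a, which fell. The part of base composition in single results was not tested beyond that fit.

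**Figure D1:**
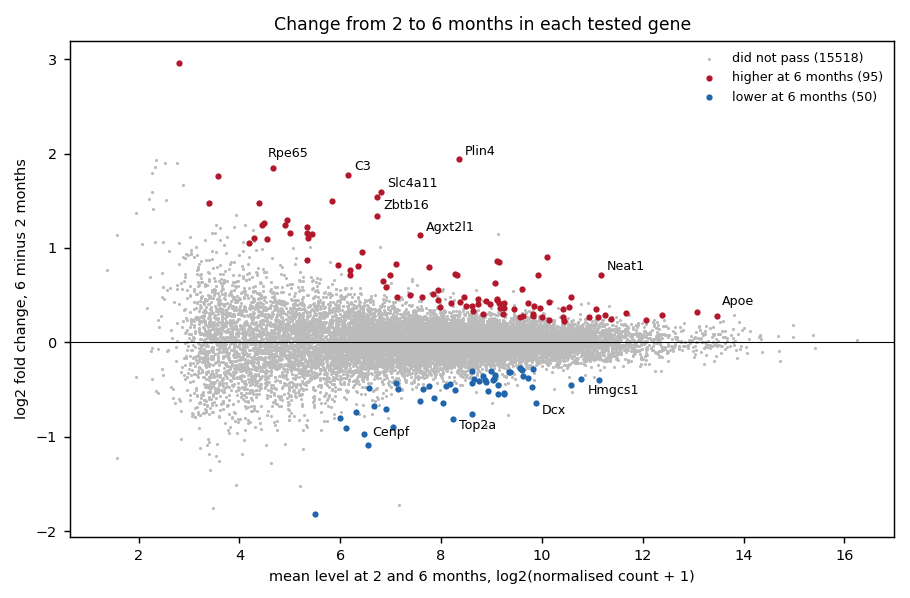
Log2 fold change from 2 to 6 months (vertical axis) against the mean level at these ages (horizontal axis, log2 of the normalised count plus 1), 1 point per tested gene. Red points are the 95 genes that passed as higher at 6 months and blue points the 50 that passed as lower. The highest red point is the gene model A530053G22Rik, at 2.96, and the highest with a name in the figure is Plin4, at 1.94.

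Genes of cell division that passed all fell. Of 42 genes of mitosis and chromosome segregation, 5 fell and none rose, and the median log2 fold change was -0.55. In 31 of the 42 all 2-month libraries lay above all 6-month libraries, against 10.5% of all tested genes. Coordinates are those of GRCm38.p6. Top2a (Entrez 21973, chromosome 11, 98992947 to 99024199), the topoisomerase that untangles replicated DNA, had normalised counts of 392, 414 and 346 at 2 months and 192, 251 and 214 at 6 months. Every 6-month library was below every 2-month library, and Top2a fell by 0.81 ± 0.14 on the log2 scale (SE, 3 against 3 libraries, adjusted p = 0.011, limma). Cenpf, a kinetochore protein, had 99.8, 126 and 123 at 2 months and 43.8, 78.4 and 58.0 at 6 months. It fell by 0.97 ± 0.22 (adjusted p = 0.0449, limma), with replicate 1 of 6 months lowest. The condensin subunits Smc4 and Ncapg, which compact chromosomes, fell by 0.62 ± 0.12 and 0.80 ± 0.18, and Prc1, which bundles spindle microtubules at the midzone, by 0.70 ± 0.14. Mki67, the nuclear protein used to mark dividing cells, had 768, 835 and 776 at 2 months and 306, 598 and 546 at 6 months. These groups did not overlap either, but the 6-month libraries spread from 306 to 598 and Mki67 did not pass (log2 fold change -0.77 ± 0.20, adjusted p = 0.0751, limma). Anln, a cytokinesis protein that oligodendrocytes also express, was the member with a positive value (0.34, adjusted p = 0.186).

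In bulk tissue, fewer cells of a type and less RNA per cell cannot be told apart, here and in every result that follows. The number of passing mitosis genes rested on single libraries. It was 0 without replicate 2 of 2 months or replicate 1 of 6 months, 1 and 3 without replicates 1 and 3 of 2 months, and 4 and 2 without replicates 2 and 3 of 6 months. It was 3 in the fit corrected for length and GC content, and the median GC content of the list was 44.2%.

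Promoters of mitotic genes are known to carry a cell cycle homology region, through which the DREAM complex represses them in resting cells, often beside CCAAT boxes. The promoters of Top2a, Ncapg and Prc1 are shown as members that fell and hold both motifs, as that of Cenpf does; of the 2 listed Prc1 starts 1 is shown. They run from 250 bases before to 50 after the start site (RefSeq, GRCm38.p6, 5′ to 3′ along the gene's strand), and capitals mark TTTGAA or TTTAAA and CCAAT on either strand.
Top2a, chr11:99024140-99024439, minus strand: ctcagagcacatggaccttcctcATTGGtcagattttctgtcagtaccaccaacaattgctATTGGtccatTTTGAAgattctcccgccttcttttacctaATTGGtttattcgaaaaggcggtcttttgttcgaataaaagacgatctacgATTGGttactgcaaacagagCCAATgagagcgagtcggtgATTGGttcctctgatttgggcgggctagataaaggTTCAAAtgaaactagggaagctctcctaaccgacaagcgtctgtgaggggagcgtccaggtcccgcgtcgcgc
Ncapg, chr5:45669675-45669974, plus strand: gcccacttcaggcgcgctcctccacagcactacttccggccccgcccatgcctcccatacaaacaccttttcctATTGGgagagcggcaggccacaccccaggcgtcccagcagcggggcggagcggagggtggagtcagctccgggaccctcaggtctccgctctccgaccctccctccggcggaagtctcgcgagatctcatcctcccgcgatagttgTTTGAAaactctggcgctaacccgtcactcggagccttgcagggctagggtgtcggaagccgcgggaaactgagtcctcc
Prc1, chr7:80294226-80294525, plus strand: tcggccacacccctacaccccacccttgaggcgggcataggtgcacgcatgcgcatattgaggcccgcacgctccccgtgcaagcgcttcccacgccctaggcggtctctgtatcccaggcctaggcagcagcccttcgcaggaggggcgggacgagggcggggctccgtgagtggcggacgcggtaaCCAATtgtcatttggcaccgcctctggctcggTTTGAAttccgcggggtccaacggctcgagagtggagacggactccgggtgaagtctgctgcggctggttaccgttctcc
In Top2a the region nearest to the start began 23 bases before it, and in Ncapg and this Prc1 start 30 bases before it. A match to TTTGAA or TTTAAA was found in 84.6% of the 39 promoters of list members and in 20.0% of the 15567 promoters of tested genes. For CCAAT the shares were 71.8% and 37.7%. Among promoters of genes that fell, 43.2% of 44 held the first motif, and among those of genes that rose, 23.4% of 107. A match is a description of the letters, not evidence of binding.

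Genes of DNA replication lay lower at 6 months without passing. None of 31 passed in either direction, and the median log2 fold change was -0.23. Values were below 0 in 28 of the 31, against 7773 of all 15663 tested genes. The member with the smallest p was Uhrf1, a maintenance factor of DNA methylation, at -0.62 ± 0.17 (adjusted p = 0.0843, limma). Pcna, the sliding clamp of the replication fork, was at -0.20 ± 0.08 and Mcm2, a helicase subunit, at -0.55 ± 0.17. None of 19 chromatin proteins of dividing progenitors passed (median -0.16). Nasp, a histone chaperone outside these lists, had 358, 368 and 364 at 2 months and 249, 272 and 248 at 6 months. The groups were far apart relative to their spread, and Nasp fell by 0.50 ± 0.08 (adjusted p = 0.00862, limma).

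Among 19 markers of transit-amplifying progenitors and activated stem cells, 2 fell and none rose (median -0.17). Ccnd2, a D-type cyclin of progenitors, had 1800.5, 1785 and 1708 at 2 months and 1122, 1461 and 1319 at 6 months. It fell by 0.45 ± 0.08 (adjusted p = 0.00995, limma), with no overlap between the ages. Fabp7, a fatty acid-binding protein of radial glia and progenitors, fell by 0.90 ± 0.18, from 172 ± 26.2 to 92.0 ± 15.7 (SD, n = 3). The count of 2 was 0 without replicate 1 of 2 months, 2 without replicate 1 of 6 months and 1 without each of the other libraries of these ages. Egfr, the growth factor receptor of activated cells, was at 0.00 ± 0.14, with overlapping libraries. Cdca7, a Myc-responsive gene of dividing cells, fell by 0.59 ± 0.13.

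Neuroblast markers made up the list with the most members that fell. Of 33 markers of neuroblasts and young neurons 9 fell and none rose, and the median log2 fold change was -0.22. In 18 of 33 the 2-month libraries were all above the 6-month libraries, against 10.5% of all tested genes. Sox11 (Entrez 20666, chromosome 12, 27334268 to 27342718), a transcription factor of newborn neurons, had 645, 634 and 703 at 2 months and 384, 507 and 469 at 6 months. All 6-month libraries were lower, and Sox11 fell by 0.55 ± 0.09 (adjusted p = 0.00877, limma). Dcx (Entrez 13193, chromosome X, 143855842 to 143933396), which binds microtubules in migrating neuroblasts, had 1189.6, 1079 and 1138 at 2 months and 569, 838 and 814 at 6 months. Replicate 1 of 6 months stood below the other two, and Dcx fell by 0.64 ± 0.13 (adjusted p = 0.0264). Igfbpl1, an insulin-like growth factor-binding protein of young neurons, fell by 0.68 ± 0.15, the largest change of the group that passed. Cd24a, a surface protein of neuroblasts and ependymal cells, fell by 0.39 ± 0.09. Nrep, Marcksl1 and Dpysl3, proteins of the growing cytoskeleton and of axon growth, fell by 0.37 ± 0.08, 0.35 ± 0.08 and 0.46 ± 0.10.

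The antisense transcripts Dlx6as1 and Dlx1as fell by 0.55 ± 0.11 and 0.43 ± 0.08. They overlap Dlx genes, homeobox factors of interneuron progenitors, and since it is not given whether counting used strand, their reads and those of the Dlx genes cannot be told apart. Dlx1 itself was at -0.44 ± 0.11 (adjusted p = 0.0611, limma) and St8sia2, which builds the polysialic acid of migrating neuroblasts, at -0.40 ± 0.10 (adjusted p = 0.0547). The count of 9 was 1 without replicate 1 of 2 months or replicate 1 of 6 months, 3 without replicate 2 or 3 of 2 months, and 7 and 4 without replicates 2 and 3 of 6 months. In the fit corrected for length and GC content it was 7. Rnd3, from the list of axon guidance, a small GTPase that slows actomyosin contraction and acts in neuronal migration, had 453, 479 and 544 at 2 months and 275, 279 and 319 at 6 months. It fell by 0.75 ± 0.10 (adjusted p = 0.00131, limma). Marcks, a membrane-bound actin regulator, had 2483, 2469.5 and 2683 at 2 months and 1915, 1934 and 1960.0 at 6 months. The 6-month values were nearly equal and all below 2 months, and Marcks fell by 0.39 ± 0.07 (adjusted p = 0.00862, limma).

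**Figure D2:**
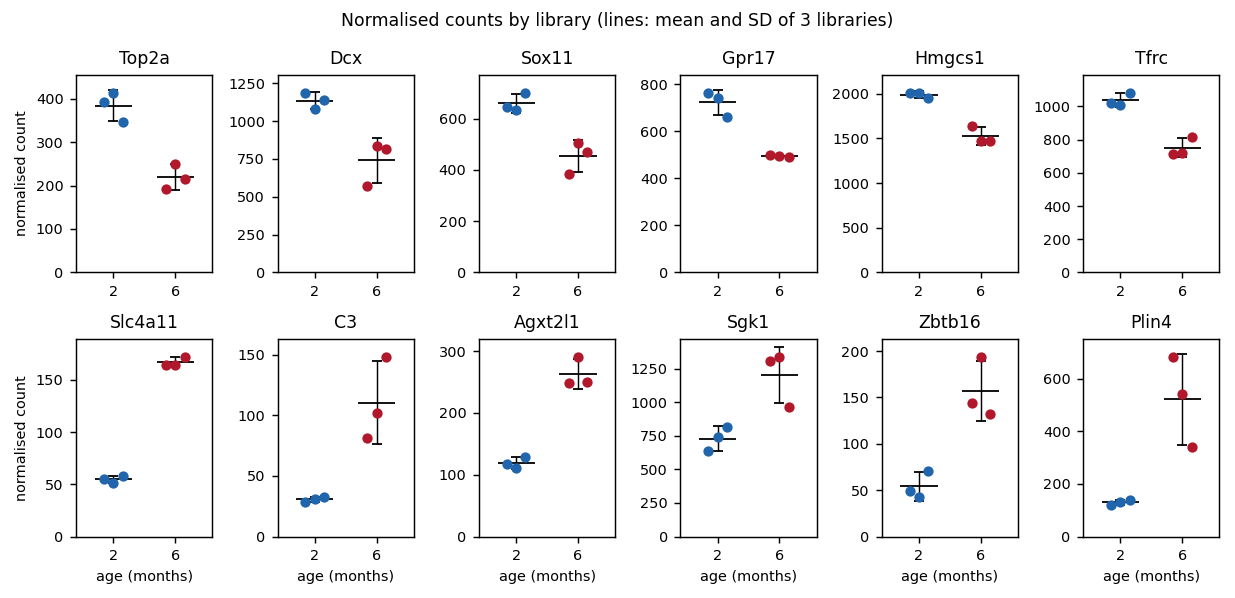
Normalised counts (vertical axes, from 0) of 12 genes in each library of 2 and 6 months; long lines are means and bars SD of 3 libraries. The upper genes fell and the lower ones rose, and in each panel the 3 libraries of one age lie above those of the other, for example Slc4a11 with a mean of 54.7 at 2 and 167 at 6 months.

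Markers of glia moved in few members, where 0.607% of all tested genes rose and 0.319% fell. Of 22 markers of oligodendrocyte precursors and early differentiation 1 fell, Gpr17, a receptor of precursors committed to differentiate (Entrez 574402, chromosome 18). Its normalised counts were 765, 742 and 663 at 2 months and 500.4, 496 and 492 at 6 months. The 6-month libraries lay between 492 and 500.4, and Gpr17 fell by 0.54 ± 0.08 (adjusted p = 0.00302, limma). Pdgfra, the growth factor receptor of precursors, was at -0.16 ± 0.09 and did not pass. Of 24 markers of myelinating oligodendrocytes 1 rose, Il33, an alarmin cytokine that brain oligodendrocytes express, with 639, 698 and 547 at 2 months and 1069, 829.7 and 899 at 6 months. Il33 rose by 0.57 ± 0.10 (adjusted p = 0.0125, limma), while Mbp, a main protein of myelin, was at 0.07 ± 0.14 and its libraries overlapped.

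Of 27 markers of quiescent stem cells and astrocytes 1 rose and 1 fell (median -0.10). Tnc, the matrix glycoprotein tenascin-C of the niche, had 86.8, 74.3 and 106 at 2 months and 55.0, 39.5 and 45.7 at 6 months. All 6-month libraries were lower, and Tnc fell by 0.91 ± 0.18 (adjusted p = 0.0229, limma). Apoe, the lipid carrier of astrocytes, which was also the one of 17 markers of activated microglia that passed, rose by 0.28 ± 0.06, from 10290.5 ± 324 to 12527 ± 1060.3. Gfap, an astrocyte filament protein, was at -0.22 ± 0.13, and Aqp4, the water channel of astrocyte endfeet, at -0.28 ± 0.07 (adjusted p = 0.0547, limma). Neither passed. Of 21 ependymal markers Cd24a fell, a gene shared with the neuroblast list, and Foxj1, the master regulator of motile cilia, was at 0.23 ± 0.09 without passing. Dio2, the deiodinase that activates thyroid hormone in astrocytes, was chosen after its values were seen: it had 652, 656 and 633 at 2 months and 480.0, 464 and 475 at 6 months and fell by 0.45 ± 0.08 (adjusted p = 0.0171, limma).

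Several steps of cholesterol synthesis had a gene that fell. Of 24 genes of cholesterol synthesis and uptake 5 fell and none rose (median -0.09). In 8 of 24 all 2-month libraries were above all 6-month libraries, against 10.5% of all tested genes. Hmgcs1 (Entrez 208715, chromosome 13, 119690351 to 119708260), the HMG-CoA synthase at the entry of the pathway, had 2013, 2008 and 1948 at 2 months and 1643, 1469 and 1465 at 6 months. It fell by 0.38 ± 0.05 (adjusted p = 0.00302, limma). Further down the pathway, Idi1, the isomerase of isoprenoid units, fell by 0.41 ± 0.07, Cyp51, the lanosterol demethylase, by 0.40 ± 0.08, and Sc5d, a late desaturase, by 0.30 ± 0.07. Like every passing gene, each of the 5 had non-overlapping ages, and their changes were at most 0.41. Sqle, the squalene epoxidase, was at -0.33 ± 0.08 (adjusted p = 0.0561, limma). The count of 5 was 1 without replicate 1 or 2 of 2 months or replicate 3 of 6 months, and 2 without each of the other 3 libraries of these ages. In the fit corrected for length and GC content it was 4.

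Sterol genes are known targets of SREBP2, which binds sterol regulatory elements, often next to NF-Y at CCAAT boxes. The promoter of Hmgcs1 is shown as the member with the smallest p. Capitals mark CACCCCAC, the core of a sterol regulatory element, and CCAAT, each on either strand.
Hmgcs1, chr13:119690101-119690400, plus strand: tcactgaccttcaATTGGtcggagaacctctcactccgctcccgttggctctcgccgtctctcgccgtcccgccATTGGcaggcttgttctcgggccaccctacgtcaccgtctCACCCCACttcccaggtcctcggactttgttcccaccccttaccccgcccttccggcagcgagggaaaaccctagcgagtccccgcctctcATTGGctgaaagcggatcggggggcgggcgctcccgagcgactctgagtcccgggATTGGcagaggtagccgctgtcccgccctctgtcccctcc
The sterol core began 136 bases before the start site. Promoters were listed for 4 of the 5 genes that fell, and those of Cyp51, Sc5d and Idi1 held a CCAAT box but not the core. Over the 19 promoters of the list, 2 (10.5%) held the core and 78.9% a CCAAT box. The shares were 3.04% and 37.7% in the promoters of all tested genes.

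Of 25 genes of fatty acid synthesis and lipid droplets 3 rose and none fell (median 0.06). Srebf1, the transcription factor of fatty acid synthesis, had 746, 719.9 and 713 at 2 months and 1012, 966 and 944 at 6 months. It rose by 0.42 ± 0.06 (adjusted p = 0.00302, limma) with little spread within either age. Pnpla2, the first lipase of droplet triglycerides, rose by 0.48 ± 0.11, while Scd1, a desaturase, and Acly, which supplies acetyl-CoA, were at 0.09 ± 0.10 and 0.06 ± 0.06 and did not pass. The third riser, the droplet coat protein Plin4, is described below. Without single libraries the count of 3 was 1 or 2, with 1 left without replicate 1 of 2 months or replicate 1 of 6 months. Tfrc, the transferrin receptor that takes up iron, had 1022, 1011 and 1084 at 2 months and 716, 722 and 818 at 6 months. All 6-month libraries were lower, and Tfrc fell by 0.47 ± 0.07 (adjusted p = 0.00772, limma). Ftl1, the light chain of the iron store ferritin, chosen after its values were seen, had 1818, 1696 and 1811 at 2 months and 2248, 2102 and 2086 at 6 months and rose by 0.27 ± 0.06 (adjusted p = 0.0287).

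Genes known to respond to glucocorticoids made up the list with the most members that rose. Glucocorticoids, the adrenal stress hormones, act through a receptor that binds DNA and induces a well-known set of genes in many tissues. Of 28 tested members 8 rose and none fell (median 0.25), and in 18 of 28 all 6-month libraries were above all 2-month libraries, against 12.3% of all tested genes. Sgk1 (Entrez 20393, chromosome 10, 21882184 to 21999903), a kinase that controls ion transport, had 637, 738 and 816 at 2 months and 1309.6, 1340.0 and 965 at 6 months. It rose by 0.71 ± 0.12 (adjusted p = 0.00862, limma). Zbtb16 (Entrez 235320, chromosome 9, 48651797 to 48836225), the zinc finger repressor PLZF, had 48.7, 42.2 and 71.1 at 2 months and 144, 194 and 133 at 6 months. The lowest 6-month library was above the highest 2-month library, and Zbtb16 rose by 1.54 ± 0.23 (adjusted p = 0.00368, limma). Plin4 (Entrez 57435, chromosome 17, 56100587 to 56109948), a lipid droplet coat protein, had 121, 130.2 and 139 at 2 months and 683, 540.0 and 340.0 at 6 months. The 2-month libraries were close together and the 6-month libraries spread more widely, with replicate 1 highest, and Plin4 rose by 1.94 ± 0.33 (adjusted p = 0.00995, limma).

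Tsc22d3, the glucocorticoid-induced leucine zipper, had 357, 394 and 517 at 2 months and 733, 664 and 555 at 6 months. It rose by 0.63 ± 0.13 (adjusted p = 0.0333, limma). Hif3a, a hypoxia-inducible factor subunit, had 46.3, 44.9 and 93.8 at 2 months and 136, 170.1 and 141 at 6 months. Replicate 3 of 2 months stood above the other 2-month libraries, and Hif3a rose by 1.34 ± 0.28 (adjusted p = 0.0315). Xdh, the xanthine dehydrogenase of purine breakdown, rose by 1.49 ± 0.29, from 31.1 ± 16.6 to 81.9 ± 15.2. Arrdc2, of the arrestin family, rose by 0.72 ± 0.16, and Mt1, a metal-binding metallothionein, by 0.35 ± 0.07. Members that did not pass included Fkbp5, the receptor co-chaperone widely used as a readout of the hormone, at 0.17 ± 0.11 (adjusted p = 0.459, limma) with 371, 349 and 473 at 2 months and 453, 463 and 419.9 at 6 months. The Fkbp5 libraries of the ages overlapped. Klf15, a transcription factor, was at 0.57 ± 0.14 (adjusted p = 0.0666) and Cdkn1a, a cell cycle inhibitor, at 0.25 ± 0.10. The count of 8 was 1 without replicate 1 of 2 months, 2 without replicate 1 of 6 months, 3 without replicate 2 of either age, and 6 without replicate 3 of either age. In the fit corrected for length and GC content it was 7.

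A glucocorticoid response element is an inverted repeat with 3 free bases, searched here as ACANNNTGT on either strand. The promoters of Sgk1 and Mt1 are shown because they were those of rising members with a match, which stands in capitals. Sgk1 has several start sites, and the one shown is the start at which the match was 186 bases before it. Another Sgk1 start had a match 127 bases before it, and the remaining listed Sgk1 starts had none. Of the 13 promoters listed for rising members, 3 (23.1%) held a match.
Sgk1, chr10:21993640-21993939, plus strand: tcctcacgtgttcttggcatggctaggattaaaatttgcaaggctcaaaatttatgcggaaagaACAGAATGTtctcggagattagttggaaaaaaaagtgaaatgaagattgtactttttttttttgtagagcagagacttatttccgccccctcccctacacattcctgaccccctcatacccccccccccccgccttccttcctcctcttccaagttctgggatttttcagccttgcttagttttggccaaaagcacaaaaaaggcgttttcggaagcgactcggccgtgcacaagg
Mt1, chr8:94178839-94179138, plus strand: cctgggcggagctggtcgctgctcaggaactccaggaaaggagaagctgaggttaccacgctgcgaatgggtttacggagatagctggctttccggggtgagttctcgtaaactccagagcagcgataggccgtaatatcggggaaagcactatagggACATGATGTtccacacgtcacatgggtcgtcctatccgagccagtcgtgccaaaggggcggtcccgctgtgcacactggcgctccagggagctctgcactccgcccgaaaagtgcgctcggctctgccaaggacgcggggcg
The motif was found in 21.6% of the 37 promoters of list members and in 4.54% of those of all tested genes. Promoters were listed for 6 of the 8 genes that rose, and those of Plin4, Hif3a, Arrdc2 and Tsc22d3 held no match in this window.

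Clock, heat shock and hypoxia genes had 2 rising members each, where 0.607% of all tested genes rose. Of 20 clock genes Dbp and Bhlhe41 rose and none fell (median 0.11). Dbp, an output factor of the clock whose level swings over the day, had 885, 905 and 1088 at 2 months and 1404, 1165 and 1294 at 6 months and rose by 0.43 ± 0.08 (adjusted p = 0.0214, limma). Bhlhe41, a repressor of the clock, rose by 0.36 ± 0.08. Nr1d1 and Per2, the nuclear receptor and a period protein of the feedback loop, were at 0.25 ± 0.06 and 0.36 ± 0.10 and did not pass. The labels give no hour of dissection, and its part in the clock and glucocorticoid results was not tested. The clock count was 0 without replicate 1 or 2 of 2 months or replicate 1 or 3 of 6 months, 1 without replicate 2 of 6 months, and 4 without replicate 3 of 2 months.

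Of 19 heat shock genes and chaperones 2 rose, the inducible HSP70 genes Hspa1a and Hspa1b. They are near-identical neighbours on chromosome 17, so their reads may be split between them. Their summed level was 499, 448 and 449 at 2 months and 969, 816 and 570.2 at 6 months, and they rose by 0.72 ± 0.15 and 0.71 ± 0.15. Neither passed when replicate 1, 2 or 3 of 2 months or replicate 1 or 2 of 6 months was left out. None of 26 immediate early genes passed (median -0.15), a class that dissociation is known to induce. Their summed level spread widely, from 15828 to 24396 at 2 months and from 14855 to 19559 at 6 months. The part of dissociation in the heat shock result was not tested. Among 17 genes of hypoxia and glycolysis, Hif3a rose, and so did Slc2a1, the glucose transporter GLUT1, by 0.36 ± 0.08 (adjusted p = 0.0334, limma). Slc2a1 was also the one riser among 26 endothelial markers (median 0.19). Txnip, a thioredoxin inhibitor that responds to glucose, had 430.2, 466 and 494 at 2 months and 612, 676 and 618 at 6 months. It rose by 0.46 ± 0.07 (adjusted p = 0.00662, limma), 1 of 2 risers with Mt1 among 22 metallothioneins and antioxidant enzymes.

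Complement C3 rose, while lists of antigen presentation, interferon response and resident microglia had no passing member. C3 (Entrez 12266, chromosome 17, 57203967 to 57228136), the central component of the complement cascade, had 28.5, 31.2 and 32.3 at 2 months and 81.5, 102 and 148 at 6 months. It rose by 1.77 ± 0.20 (adjusted p = 0.000352, limma), and no library overlapped. C3 was the one of 18 complement genes that passed. C4b, which acts before C3, was at 0.54 ± 0.13 (adjusted p = 0.0553, limma), and C1qa, a subunit of the initiating complex, at 0.37 ± 0.10. None of 20 genes of antigen presentation passed although their median was 0.30, and none of 27 interferon-stimulated genes (median 0.05). None of 23 microglial markers passed, with a summed level of 8299 to 8660.2 at 2 months and 8714 to 9784 at 6 months, and Cx3cr1, their chemokine receptor, was at -0.01 ± 0.07. B2m, the light chain of MHC class I, was at 0.09 ± 0.24 with overlapping libraries. The T cell receptor subunits Cd3g and Cd3d had no read in the 6 libraries and Cd3e only in replicate 2 of 2 months, at 2.75 normalised counts (3 reads).

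Lag3, an inhibitory receptor that binds MHC class II, and Rspo1, a secreted enhancer of WNT signalling, were chosen after their values were seen. Lag3 had 40.4, 47.7 and 43.1 at 2 months and 86.6, 73.2 and 73.8 at 6 months and rose by 0.82 ± 0.14 (adjusted p = 0.00877, limma). Rspo1 had 63.0, 50.4 and 49.6 at 2 months and 87.6, 88.3 and 91.4 at 6 months and rose by 0.71 ± 0.12 (adjusted p = 0.00862). In both the lowest 6-month library was above the highest 2-month library. None of 27 tested genes of the WNT signalling list, which does not hold Rspo1, passed (median 0.07).

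Of the globin transcripts 2 rose. Hba-a2, an alpha globin, had 568, 1051 and 696 at 2 months and 1651, 1343 and 1233 at 6 months and rose by 0.91 ± 0.17 (adjusted p = 0.0188, limma). Beta-s, a beta globin, rose by 0.86 ± 0.15, from 404 ± 95.1 to 729 ± 149. Globin copies are near-identical, so reads may be shared between them. Without replicate 1 of either age neither globin passed, and without replicate 3 of 2 months 1 did. The erythroid and blood list, of which 6 genes were tested and 2 rose, had a summed level of 3149 to 3647 at 2 months and 4075 to 4849 at 6 months. Alas2, the heme synthesis enzyme of red cell precursors, was at 0.46 ± 0.28 without passing. The part of blood left in the tissue was not tested for the other genes that rose.

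Several of the clearest changes were in single genes of transport and metabolism. Slc4a11 (Entrez 269356, chromosome 2, 130684107 to 130697519), a transporter related to the bicarbonate transporters, had 54.7, 51.4 and 58.2 at 2 months and 164, 164 and 172 at 6 months. It had the smallest p of all genes, and rose by 1.59 ± 0.11 (adjusted p = 1.66e-06, limma). Rpe65 (Entrez 19892, chromosome 3, 159599075 to 159625307), the isomerase that regenerates retinal in the eye, had 11.9, 11.0 and 7.54 at 2 months and 37.7, 36.6 and 41.3 at 6 months. It rose by 1.85 ± 0.21 (adjusted p = 0.000352, limma) at a low level. Stra6, the cell surface receptor of retinol-binding protein, rose by 0.96 ± 0.22 and was the other of 2 risers among 19 genes of retinoid metabolism, with replicate 3 of 2 months (88.4) close to the 6-month libraries (99.9 to 117). Of these 2 risers 1 was left without each of the 6 libraries other than replicate 3 of 2 months.

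Agxt2l1 (Entrez 71760, chromosome 3, 130617448 to 130635750), now called Etnppl, an enzyme of astrocytes that breaks down phosphoethanolamine, had 118, 111 and 129 at 2 months and 249, 291 and 250.4 at 6 months. It rose by 1.13 ± 0.11 (adjusted p = 8.97e-05, limma), and the ages were well apart. Abca8a, a membrane transporter of the ABC family, had 146, 161 and 162 at 2 months and 302, 256 and 263 at 6 months and rose by 0.80 ± 0.10 (adjusted p = 0.00131). Neat1, the long non-coding RNA that scaffolds nuclear paraspeckles, had 1746, 1869.8 and 1603 at 2 months and 3282, 2628 and 2681 at 6 months. It rose by 0.71 ± 0.10 (adjusted p = 0.00324, limma), with replicate 1 of 6 months highest. Grrp1 and Cyp2a4, a steroid hydroxylase, rose by 1.77 ± 0.38 and 1.48 ± 0.34 from means of 4.62 and 4.89 normalised counts, near the limit of 3 reads. The gene model 9630013A20Rik had the largest fall, from 69.9 ± 8.51 to 19.1 ± 2.85 normalised counts (1.82 ± 0.27 on the log2 scale, adjusted p = 0.00368, limma). The largest rise, 2.96 on the log2 scale, was that of the gene model A530053G22Rik, whose call was lost without 2 of the 6 libraries in turn.

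Matrix, guidance and growth factor genes moved in single members only. Over all tested genes 0.607% rose and 0.319% fell. Among 37 extracellular matrix genes, Hspg2, the basement membrane proteoglycan perlecan, had 87.9, 88.0 and 88.4 at 2 months and 145, 135 and 136 at 6 months and rose by 0.65 ± 0.15 (adjusted p = 0.0449, limma), and Tnc fell. Among 42 axon guidance genes, Unc5a, a netrin receptor, rose by 0.41 ± 0.08, and Sema5a, a semaphorin, fell by 0.65 ± 0.13 along with Rnd3. Of the 2 falling guidance genes 1 was left without replicate 1 or 2 of either age, and 3 fell without replicate 3 of 2 months. Igfbp6, an insulin-like growth factor-binding protein, was the one of 34 growth factors and receptors that passed and rose by 0.77 ± 0.17. Car8, a carbonic anhydrase-related protein, fell by 0.73 ± 0.16. Of 40 cytosolic ribosomal proteins Rpl37 rose by 0.30 ± 0.06. Values were above 0 in 37 of the 40 (median 0.11), against 7890 of all 15663 tested genes. Hspg2, Unc5a, Igfbp6, Rpl37 and Car8 did not pass in the fit corrected for length and GC content, while Tnc, Sema5a and Rnd3 did.

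Most genes of an F-box cluster on chromosome 9 rose. The 12 Fbxw genes tested there lie between 109139454 and 109746089 (GRCm38.p6) and encode F-box proteins with WD40 repeats, substrate receptors of ubiquitin ligases, several of which are known from oocytes. Of the 12, 9 rose, with log2 fold changes of 1.06 to 1.48, and the other 3 (Fbxw13, Fbxw14 and Fbxw28) were at 1.20, 0.92 and 0.83 without passing. In all 12 the 6-month libraries were above the 2-month libraries, against 12.3% of all tested genes. The cluster was chosen after its values were seen, so this separation follows in part from that choice. Fbxw21, at one end of the cluster, had 28.5, 22.9 and 18.3 at 2 months and 60.1, 45.3 and 60.6 at 6 months and rose by 1.23 ± 0.18 (adjusted p = 0.00368, limma). Fbxw26, at the other end, had 22.6, 17.4 and 10.8 at 2 months and 51.0, 33.7 and 36.9 at 6 months. Summed over the 12 genes the level was 209, 182 and 140.1 at 2 months and 496, 333 and 409 at 6 months. Neighbours outside the family did not pass: Plxnb1, a semaphorin receptor, was at -0.02 ± 0.07, Spink8 at 0.60 ± 0.44 and Nme6 at 0.09 ± 0.16. These genes are closely related copies at a low level, so reads may be shared among them and the 9 calls are not independent.

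**Figure D3:**
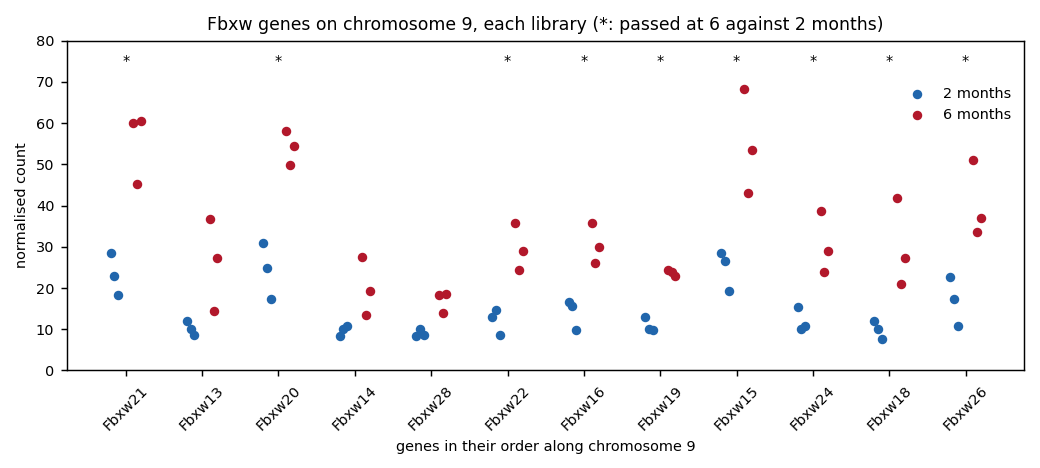
Normalised counts (vertical axis) of the 12 Fbxw genes on chromosome 9 in the 3 libraries of 2 months (blue) and of 6 months (red), in their order along the chromosome; an asterisk marks the 9 that passed. In every gene the red points lie above the blue ones, with Fbxw15 highest at 68.3.

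All 3 Mettl7a genes on chromosome 15, which encode methyltransferase-like proteins, rose by 0.43 to 0.48, and their summed level was 674, 624 and 654 at 2 months and 929, 866 and 872 at 6 months. Of 22 gamma protocadherin genes on chromosome 18, cell adhesion proteins that give neurons an identity, 4 rose (Pcdhga5 to Pcdhga8, by 0.37 to 0.44) and the median log2 fold change was 0.27. Values in the family ran from -0.18 to 0.44, with Pcdhgc3, Pcdhgc4 and Pcdhgc5 below 0 and not passing. These genes share their last exons, so reads there belong to no single member. Both families, like the Fbxw cluster, were chosen after their values were seen.

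The remaining lists had no passing member. Medians were 0.03 for 24 genes of Notch signalling, -0.09 for 13 of Hedgehog signalling, 0.04 for 26 of BMP and TGF-beta signalling and -0.12 for 23 imprinted growth genes. They were 0.06 for 36 genes of the respiratory chain, 0.06 for 30 pan-neuronal genes, -0.02 for 20 striatal markers and 0.03 for 14 cell cycle inhibitors and senescence genes. Vascular and barrier tissues gave 0.11 for 15 genes of pericytes and smooth muscle, -0.01 for 15 of fibroblasts and meninges and 0.17 for 17 of choroid plexus. Ttr, which the choroid plexus secretes in large amounts, ran from 942 to 1656 at 2 months and from 608 to 2054 at 6 months. Of 16 lymphocyte genes 3 were tested, and none of them passed.

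**Figure D4:**
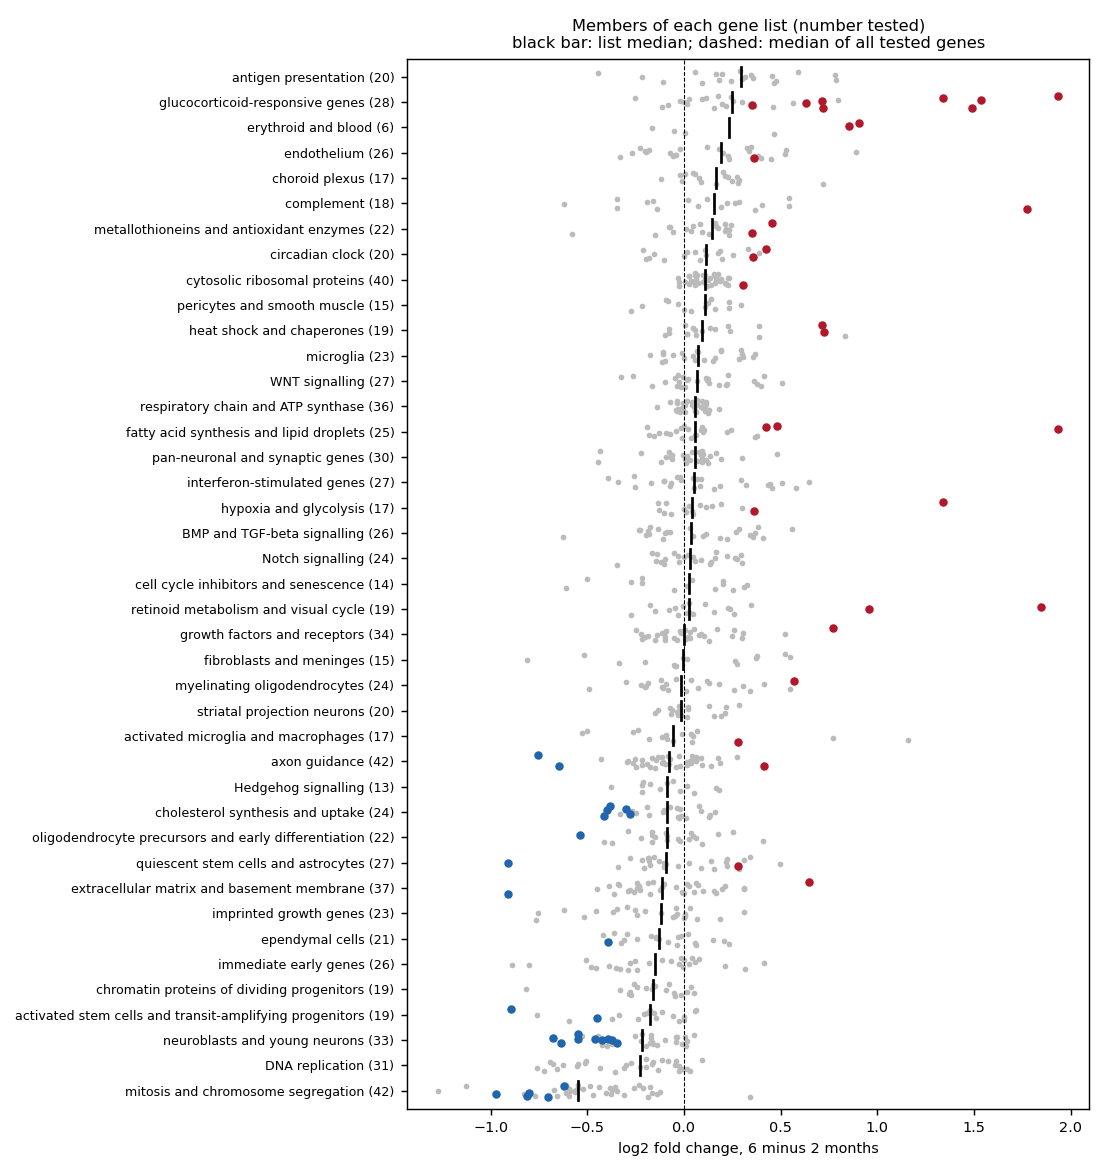
Log2 fold change from 2 to 6 months (horizontal axis) of each tested member of the gene lists with at least 6 tested members, sorted by the median (black bar); red points rose, blue points fell and grey points did not pass. The mitosis list has the lowest median, -0.55, and the glucocorticoid list has the most red points, 8.

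The later ages show what became of these changes. They share no library with the 2-month group, but the fit of 18 against 6 months uses the same 6-month libraries. Top2a went on from 219 ± 29.9 at 6 months to 141 ± 12.7 at 18 and 115 ± 26.3 at 22 months, and Gpr17 from 496 ± 4.23 to 367 ± 22.8 and 268 ± 17.3 (SD, n = 3). Few genes passed in 18 against 6 months, 11 as higher (0.0702%) and 13 as lower (0.083%). Gpr17 passed as lower again in 18 against 6 and in 22 against 18 months (adjusted p = 0.023 and 0.0011, limma). C3 was at 204 ± 27.4 at 18 and 351 ± 104 at 22 months, above its 6-month level, and rose again from 18 to 22 months (adjusted p = 0.016). Slc4a11 was at 181 ± 20.0 and 161 ± 17.9, close to its 6-month level. Zbtb16 was at 100.3 ± 36.2 at 18 and 38.6 ± 1.61 at 22 months, below its 2-month mean of 54.0. It fell from 18 to 22 months (adjusted p = 0.0014, limma). Hif3a followed the same order, at 103 ± 46.7 and 52.4 ± 13.5, and Tsc22d3 was at 465 ± 63.9 and 357 ± 41.0. Other members of the glucocorticoid list stayed above their 2-month means at 22 months, such as Plin4 (219 against 130) and Xdh (57.9 against 31.1). The summed level of the list had medians of 22786, 27417, 26270 and 26720 at 2, 6, 18 and 22 months. Of the 95 genes that rose at 6 months, 5 had a 22-month mean below the 2-month mean. Neat1 was highest at 18 months, at 3966 ± 625, and at 2667 ± 255 at 22 months.

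**Figure D5:**
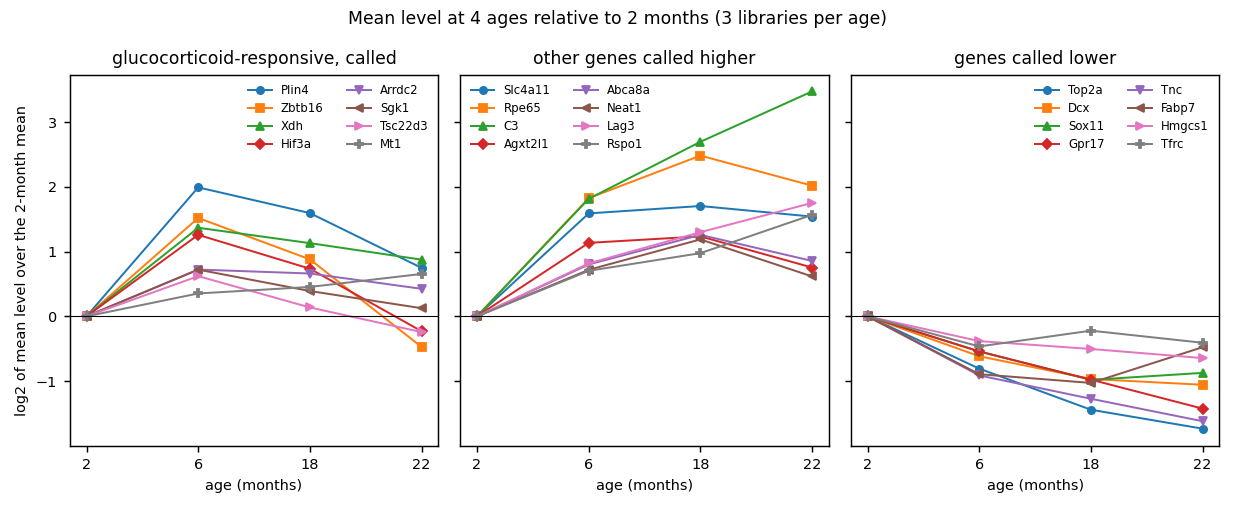
Log2 of the mean level over the 2-month mean (vertical axis) at the 4 ages (horizontal axis, ages evenly spaced), 3 libraries per age; the panels hold the 8 glucocorticoid-responsive genes that rose at 6 months, 8 other genes that rose and 8 that fell. Zbtb16, Hif3a and Tsc22d3 lie below 0 at 22 months, while Plin4 and Xdh stay above 0. C3 climbs at every age, and the falling genes stay below 0.

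The step from 2 to 6 months was tested against the other step of 4 months in the series, from 18 to 22 months, which uses other libraries. The difference of the steps passed for 817 of 15663 genes (5.22%), 577 with a larger value in the early step (3.68%) and 240 with a smaller one (1.53%). The count was 310 without replicate 3 of 18 months, 507 and 483 without replicates 1 and 3 of 2 months, and 1274, 414 and 435 without replicates 1, 2 and 3 of 6 months. Of the 95 genes that rose at 6 months, 53 passed with a positive difference and none with a negative one; of the 50 that fell, 24 passed, all with a negative difference. Both tests use the 2- and 6-month libraries, so these shares follow in part from how the genes were chosen. The late step was itself large, with 1352 genes higher (8.63%) and 1604 lower (10.2%) at 22 months. The 22-month libraries also stood apart in composition: transcripts over 6000 nt took 20.4% to 20.9% of their reads, against 22.8% to 25.5% at 2 and 6 months, and its part in the difference of the steps was not tested.

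Slc4a11 had the smallest p among positive differences, 1.76 ± 0.16 (log2, adjusted p = 2.19e-05, limma). It combined a rise at 6 months with a change of -0.16 from 18 to 22 months. Zbtb16 differed by 2.83 ± 0.32, Agxt2l1 by 1.61 ± 0.16 and Neat1 by 1.28 ± 0.14. Among the glucocorticoid-responsive genes that rose, 7 of 8 passed with a positive difference, Mt1 being the exception at 0.15 ± 0.10. Gpr17 and Apoe had nearly equal steps, with differences of -0.09 ± 0.11 and -0.05 ± 0.08 that did not pass. Ahnak, a giant scaffold protein, passed through its late change of -1.21 and did not pass at 6 against 2 months (0.29 ± 0.11). The smallest p of negative differences belonged to Tmem181c-ps, Tmem181a, Dynlt1a, Tmem181b-ps and Dynlt1f, neighbouring copies on chromosome 17. They changed by -0.12 to -0.07 from 2 to 6 months without passing, and by 0.72 to 0.87 from 18 to 22 months.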

How the data were processed

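Gene expression was measured by RNA sequencing in 12 libraries, 3 at each of 4 ages. The authors deposited 1 table of normalised values, a signal that equals read counts divided by a size factor of each library: all values came out as whole multiples of 1 read within a tolerance of 1e-06. The submitters' processing notes name DESeq2 and the build mm10. The aligner, the counter, the annotation and the use of strand are not given in the sources used here, so reads of overlapping or near-identical genes may be shared. Size factors computed anew from the recovered reads differed by at most 1.48%. The authors' own comparison column was not used.

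The fit took the log2 of the deposited normalised count plus 1 for 15663 of 23725 genes, those reaching 10 normalised counts in 3 or more libraries, and used limma 3.58.1 in R 4.3.3 with an intensity trend, all 12 libraries, age as the group and no block. Fold changes are on this scale, which understates changes of low genes. The Benjamini-Hochberg adjustment ran over every tested gene, with a threshold of 0.05. The alternatives were edgeR 4.0.16, DESeq2 1.42.0, other scalings, pseudocounts and filters, a replicate block, removal of length and GC trends and leaving out each library. List counts under some of these were added after seeing the data. The scripts were tested on simulated data. SE values come from the spread between libraries in the fit, and SD values from the 3 libraries of an age. The limit of 3 reads covers counting error only.

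Named genes were the 15 highest and 15 lowest passing fold changes with a proper symbol and ages apart, up to 4 passing members of each list by p, the 10 smallest p in each direction, up to 5 per direction for the difference of the steps, and a fixed panel. Others are marked as chosen after their values were seen, or were named to complete a list; some members are not reported here. The members and lists were chosen with earlier results of these data known. Of the table's genes, 456 had no symbol, 27 symbols had turned into dates, and 23666 matched RefSeq GRCm38.p6, the source of coordinates and promoters (12267 of the tested genes had a promoter).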

Additional observations from a re-analysis of the deposited data

Results flagged for a closer look

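For 40 named genes the change from 2 to 6 months differed from the change from 18 to 22 months by the test of the difference itself (limma, adjusted p under 0.05). Values are the early minus the late log2 change. Among the glucocorticoid-responsive genes the difference was 2.83 for Zbtb16, 2.66 for Plin4, 2.25 for Hif3a, 1.76 for Xdh, 1.01 for Tsc22d3 and 0.98 for Sgk1. In the Fbxw cluster, whose members may share reads, it was 1.93 for Fbxw18, 1.71 for Fbxw24, 1.62 for Fbxw21, 1.54 for Fbxw20, 1.52 for Fbxw22 and 1.52 for Fbxw26. Other genes that rose at 6 months gave 2.32 for Rpe65, 1.97 for Grrp1, 1.76 for Slc4a11, 1.61 for Agxt2l1, 1.41 for E230025N22Rik, 1.28 for Neat1, 1.20 for Abca8a, 1.06 for Il33 and 1.03 for C3, and smaller differences were 0.87 for Hspg2, 0.66 for Pnpla2, 0.57 for Txnip, 0.46 for Dbp and 0.31 for Srebf1. Of progenitor markers that fell the values were -1.47 for Fabp7 and -0.52 for Ccnd2, and of neuroblast markers -1.28 for Igfbpl1, -0.88 for Cd24a, -0.75 for Nrep, -0.69 for Dlx1as and -0.66 for Sox11. Other genes that fell gave -2.09 for 9630013A20Rik, -1.23 for Rnd3, -0.89 for Cdca7, -0.82 for Smc4, -0.81 for Car8, -0.56 for Marcks and -0.41 for Idi1. Of these, Rnd3, Cd24a, Nrep, Dlx1as, Igfbpl1 and Fabp7 also passed as higher at 22 than at 18 months, and Zbtb16, Hif3a, Agxt2l1, Abca8a, Neat1 and Il33 as lower, while C3 rose in both steps. The 22-month libraries had fewer reads from long transcripts, and the part of this in the differences was not tested.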

How the results depend on the processing

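For 6 against 2 months, edgeR called 145 genes on the recovered reads, 136 of them among the 145, and DESeq2 called 243, 133 of them among the 145. The count was 92 with no filter on low values and 17 with no intensity trend of the variance. Leaving out single libraries gave 39 to 266 genes. TMM scaling gave 140 higher and 51 lower genes. For the early minus the late step, 182 genes passed with no intensity trend, and single libraries left out gave 310 to 1274. The cause of these shifts was not tested. No pairing of libraries by replicate number was seen: correlations of same-numbered deviations were -0.038, 0.086 and -0.065, and not every library correlated best with its own number. With 3 libraries per age, these correlations cannot decide whether same-numbered libraries shared a batch. With the replicate block 101 genes passed for 6 against 2 months and 615 for the difference of the steps, and with the block and the length and GC trend removed 87 and 525. Values of single named genes and counts of passing list members were compared with the main fit together. No value changed sign while called, 2303 stayed the same, 372 lost the call, 29 gained it and 128 moved. Only counts could be labelled as moved, which means a change of more than 1.5-fold in either direction. In 13 genes the call held under every setting run. Counts of 3 reads corresponded to 1.74 to 3.57 normalised counts in these libraries, so values of genes near this level rest on few reads.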
